A study of Mus musculus with 6 samples.

Results

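The 10 genes described here are markers of vascular endothelial identity, selected by gene symbol with no threshold on a measured value, though with earlier results of these data known: Cdh5, Pecam1, Esam, Kdr, Flt1, Tek, Tie1, Emcn, Egfl7 and Vwf. All 10 had a row among the 30914 genes of the deposited FPKM table, and all 10 were among the 13089 genes tested, those that reached 0.5 FPKM in 3 or more of the 6 libraries. FPKM is the number of fragments of a gene divided by the length of its transcripts and by the total of mapped fragments, so levels of different genes can be set side by side on it. RNA was taken from the hearts of wild-type male C57BL/6J mice, given as 8 weeks old. Both groups carried an osmotic pump delivering angiotensin II (Ang II), a pressor hormone that enlarges the heart, at 1 μg/kg/min for 4 weeks. The 3 mice of the Ang II group received Ang II without Tec, and the 3 mice of the Ang II + Tec group also received tectochrysin (Tec), a plant flavonoid, at 5 mg/kg over the last 2 weeks. No hearts free of Ang II entered this comparison, so it addresses Tec on top of Ang II and not Ang II itself.

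Endothelial cells line every vessel and the inner wall of the heart, and the myocardium is densely supplied with capillaries. Their identity rests on junction proteins that seal the lining, on receptor tyrosine kinases for vascular endothelial growth factors (VEGF) and angiopoietins that drive vessel growth and keep vessels quiet, and on surface and secreted proteins that face the blood. In whole-heart RNA, fewer endothelial cells and less RNA per endothelial cell cannot be told apart.

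Transcripts of the mitochondrial genome made up 40.15% to 48.86% of the summed FPKM in the Ang II libraries and 49.63% to 52.53% in the Ang II + Tec libraries. They enter the total by which every other gene is divided. Depth can be had only in relative terms, from the step between the lowest FPKM values of a library, and was 0.9434 to 1.266 times that of Ang II replicate 1. Across all 13089 tested genes the median log2 fold change of Ang II + Tec against Ang II was -0.17, and 80% of genes were lower in direction. Dividing each library by its median ratio to the geometric mean over the libraries (median of ratios) brought that shift to 0.0020, and values on this second scale are given below as rescaled. Ventricular cardiomyocyte markers summed to between 8457 and 10330 FPKM in every library. The atrial gene Myl7 stood at 419.0 and 332.3 FPKM in Ang II replicates 1 and 2 and at 1039.8 in Ang II + Tec replicate 2, was listed at 0 in Ang II replicate 3 and Ang II + Tec replicate 1, and was at 1.58 in Ang II + Tec replicate 3, so the libraries differed widely in atrial transcripts.

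All 10 endothelial genes were detected in all 6 libraries, and none was called between the groups. With limma on log2(FPKM + 1), 0 of 10 passed both limits of a call, an adjusted p-value under 0.05 and a log2 fold change of 1 or more in size, where 0.16% of all tested genes did. Without the limit on size the count was also 0 of 10, where 0.183% passed. Adjusted p-values are those of Benjamini and Hochberg over all tested genes, and this scale understates the change of genes at low FPKM. At an unadjusted p-value under 0.05 there were 2 of 10, where 18.6% of all tested genes passed. These were Kdr and Egfl7, and both were lower with Tec, as were 16.5% of all tested genes at that level. The same 2 genes were those in which the 3 Ang II + Tec values all lay below the 3 Ang II values, which held for 18.9% of all tested genes, so the count was near the background. In 0 of 10 did the Ang II + Tec values all lie above, where 2.9% did, and 21.8% of all tested genes were free of overlap in either direction. The median log2 fold change of the 10 genes was -0.12 beside -0.17 for all tested genes, and 8 of 10 were lower in direction. After rescaling, the median was 0.0995 beside 0.0020, 7 of 10 genes were higher in direction, where 50.4% of all tested genes were, 3 were lower, and 0 of 10 had an unadjusted p-value under 0.05, which 15.6% of all tested genes had on that scale. The count of called genes was 0 of 10 under each alternative run as well.

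**Figure D1:**
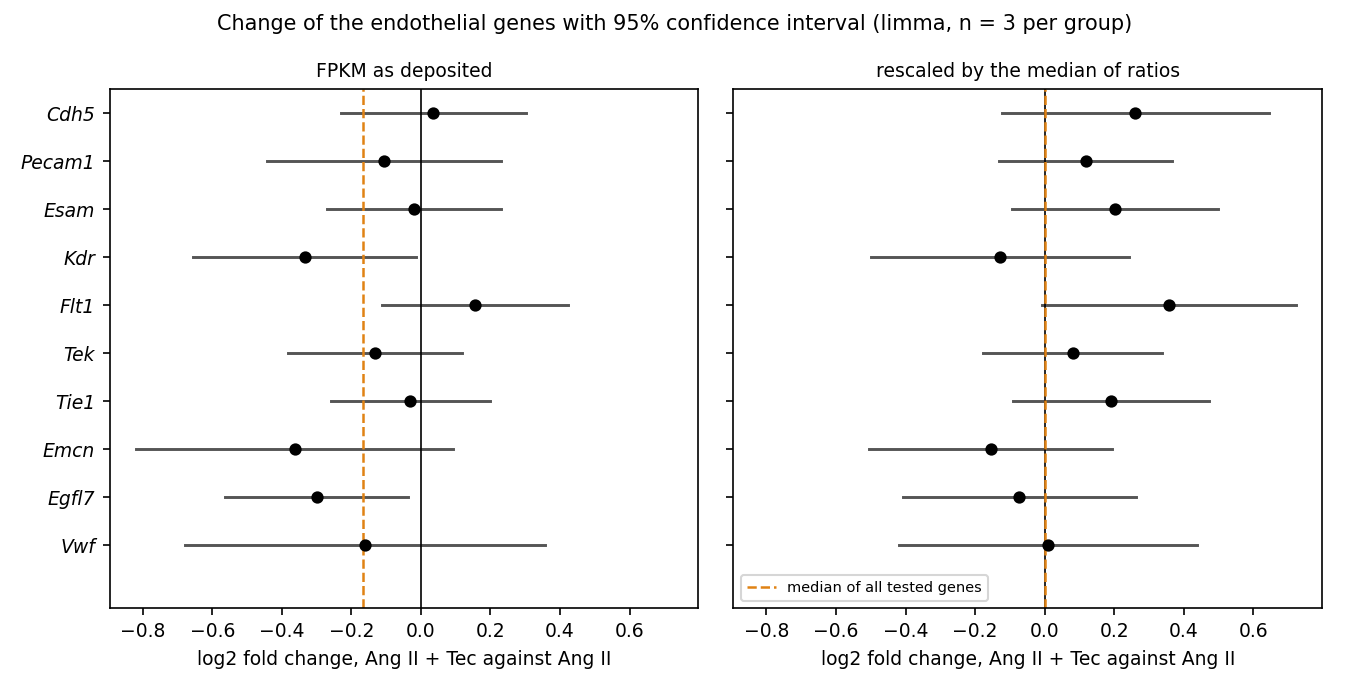
Log2 fold change of each gene (horizontal axis, Ang II + Tec against Ang II, on log2(FPKM + 1)) with its 95% confidence interval from limma, for the deposited FPKM on the left and the rescaled FPKM on the right, n = 3 per group. The dashed line is the median of all 13089 tested genes, at -0.17 on the left and 0.0020 on the right. On the left the intervals of Kdr and Egfl7 end below 0, and on the right every interval includes 0.

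On the deposited scale the 3 junction genes differed between the groups by less than the spread between hearts. Cdh5 encodes VE-cadherin, the adhesion protein of endothelial adherens junctions (ENSMUSG00000031871, chromosome 8 from 104101625 to 104144511 in GRCm38, as are all positions here). Its FPKM was 20.23, 19.99 and 22.20 in Ang II replicates 1, 2 and 3 and 23.32, 21.37 and 19.49 in Ang II + Tec replicates 1, 2 and 3. The groups overlapped fully, with the highest and the lowest value both in the Ang II + Tec group. Tec against Ang II gave a log2 fold change of 0.036 (standard error 0.11, 95% interval -0.23 to 0.30, limma adjusted p = 0.860).

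Pecam1 encodes CD31, an adhesion molecule of endothelial cell borders that is also carried by platelets and leukocytes (ENSMUSG00000020717, chromosome 11 from 106654217 to 106750628). Its FPKM was 20.52, 24.31 and 19.59 with Ang II and 17.16, 22.75 and 19.85 with Ang II + Tec. Replicate 2 was the highest of each group, and the groups overlapped. The log2 fold change was -0.11 (standard error 0.14, limma adjusted p = 0.660). Esam, an adhesion molecule of endothelial tight junctions and platelets (ENSMUSG00000001946, chromosome 9 from 37528078 to 37538319), had an FPKM of 17.33, 15.84 and 17.12 with Ang II and 15.48, 17.58 and 16.53 with Ang II + Tec. Its highest and lowest libraries both belonged to the Ang II + Tec group, and the log2 fold change was -0.020 (standard error 0.11, 95% interval -0.27 to 0.23, limma adjusted p = 0.919). The summed FPKM of the 3 junction genes was 58.08, 60.14 and 58.91 in the Ang II libraries and 55.96, 61.7 and 55.87 in the Ang II + Tec libraries. After rescaling all 3 were higher with Tec in direction. Their log2 fold changes were 0.26 for Cdh5 (standard error 0.16), 0.12 for Pecam1 (0.10) and 0.20 for Esam (0.12). Each 95% interval included 0 and the groups overlapped.

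The VEGF receptor genes Kdr and Flt1 differed in direction. Kdr encodes VEGFR2, the main signalling receptor for VEGF-A (ENSMUSG00000062960, chromosome 5 from 75932827 to 75978458). Its FPKM was 9.03, 7.68 and 9.44 with Ang II and 6.94, 7.51 and 5.71 with Ang II + Tec, a mean of 8.72 ± 0.921 (SD, n = 3) against 6.72 ± 0.920 (SD, n = 3). The groups did not overlap, but only 7.68 against 7.51 separated them, both in replicate 2. This gave a log2 fold change of -0.33 (standard error 0.14, 95% interval -0.66 to -0.014), with a limma adjusted p of 0.259 and an unadjusted p of 0.0431. After rescaling it was -0.13 and the groups overlapped.

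Flt1 encodes VEGFR1, which binds VEGF-A, VEGF-B and placental growth factor and also exists as a soluble form that sequesters them (ENSMUSG00000029648, chromosome 5 from 147561604 to 147726011). The table gives 1 value for the gene, so its forms are not separated. Its FPKM was 5.64, 5.13 and 6.38 with Ang II and 6.33, 6.47 and 6.59 with Ang II + Tec, a mean of 5.72 ± 0.629 (SD, n = 3) against 6.46 ± 0.130 (SD, n = 3). The Ang II + Tec values lay close together at the top of the Ang II range, with Ang II replicate 3 among them. For Flt1 the log2 fold change was 0.16 (standard error 0.11, 95% interval -0.11 to 0.42, limma adjusted p = 0.436), and 0.36 after rescaling with an unadjusted limma p of 0.0543.

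A ratio within a library does not depend on how that library is scaled. The ratio of Flt1 to Kdr FPKM was 0.625, 0.668 and 0.676 in the Ang II libraries and 0.912, 0.862 and 1.15 in the Ang II + Tec libraries. It was therefore higher in each Ang II + Tec library than in any Ang II library, with a mean of 0.656 ± 0.0276 (SD, n = 3) against 0.976 ± 0.156 (SD, n = 3). The log2 difference was 0.56 (standard error 0.13), which is 1.48-fold. The exact two-sided permutation test gave p = 0.1, the smallest that 3 libraries against 3 allow, and 0.3 after adjustment over the 3 ratios examined (Benjamini-Hochberg), so the design cannot place this separation under 0.05. With each library left out in turn the log2 difference stayed between 0.43 and 0.65. Its sign could not change, since the groups were already separate with all 6 libraries.

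**Figure D2:**
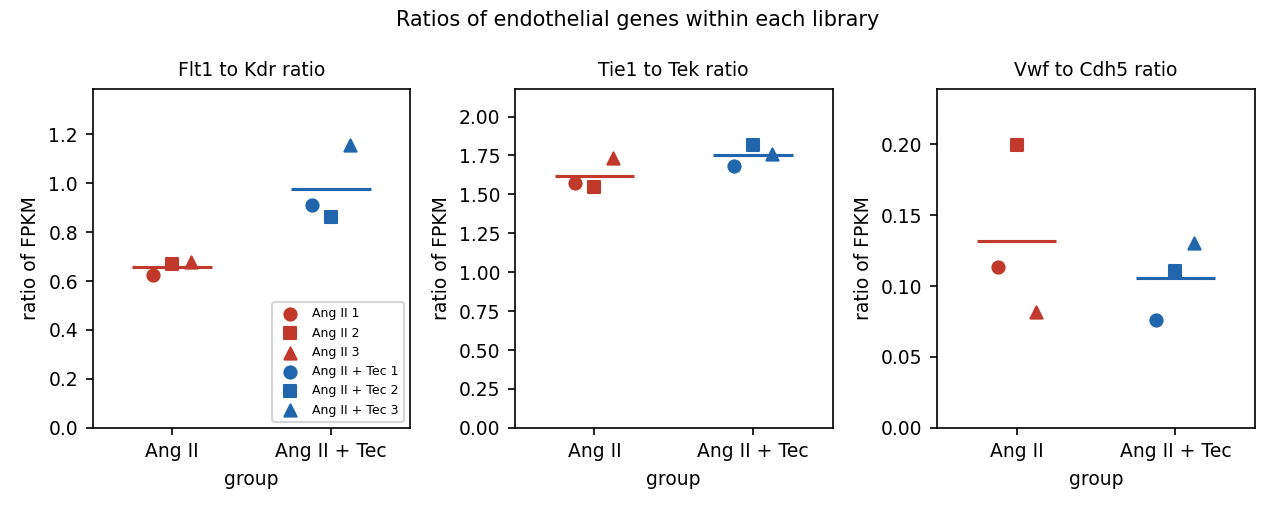
Ratio of FPKM of 2 endothelial genes within each library (vertical axis, linear and starting at 0), for Flt1 to Kdr, Tie1 to Tek and Vwf to Cdh5, with 1 point per library and a line at each group's mean. The Flt1 to Kdr ratio is 0.625 to 0.676 in the Ang II libraries and 0.862 to 1.15 in the Ang II + Tec libraries, while the groups overlap for the other ratios.

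The sequences before the start sites of Kdr and Flt1 are shown because these were the genes of the pair that separated the groups. ETS factors such as Erg and Fli1 maintain endothelial gene expression and bind a GGAA core. The letters searched were AGGAAG and CGGAAG on both strands, in the 250 bases before the annotated start, and matches are in capitals. The Kdr window lies at chr5:75978456-75978705 on the minus strand and the Flt1 window at chr5:147726012-147726261 on the minus strand (RefSeq, GRCm38.p6).
Kdr: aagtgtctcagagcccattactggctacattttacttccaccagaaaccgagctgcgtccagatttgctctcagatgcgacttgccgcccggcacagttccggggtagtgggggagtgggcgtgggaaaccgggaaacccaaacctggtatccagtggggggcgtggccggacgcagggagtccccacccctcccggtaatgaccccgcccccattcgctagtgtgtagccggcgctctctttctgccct
Flt1: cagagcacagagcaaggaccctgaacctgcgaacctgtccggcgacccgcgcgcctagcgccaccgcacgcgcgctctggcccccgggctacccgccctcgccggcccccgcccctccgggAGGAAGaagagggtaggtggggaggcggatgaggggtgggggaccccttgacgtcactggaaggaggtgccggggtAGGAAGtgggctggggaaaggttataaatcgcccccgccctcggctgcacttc
The Flt1 window held 2 ETS matches, which begin 129 and 53 bases before the start, and the Kdr window held 0. The shorter core GGAA was not searched for on its own, and it stands in both windows outside the letters searched. Of all 32851 RefSeq promoter windows of this length 39.2% held an ETS match, 16.6% a GATA match and 25.2% a SOX match. G and C made up 61.6% of the Kdr window and 70.4% of the Flt1 window. RefSeq promoters were found for 6 of the 10 genes, in 8 windows. The ETS letters stood in at least 1 window of 4 genes (Egfl7, Emcn, Flt1 and Tie1) and in neither Kdr nor Tek. Promoters of Cdh5, Pecam1, Esam and Vwf were not analysed here. A match describes the letters only.

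The angiopoietin receptor pair differed less. Tek encodes TIE2, the receptor of angiopoietins 1 and 2 (ENSMUSG00000006386, chromosome 4 from 94739289 to 94874976), and its FPKM was 9.16, 9.52 and 8.43 with Ang II and 8.63, 8.00 and 7.85 with Ang II + Tec. The groups overlapped through Ang II replicate 3 and Ang II + Tec replicate 1, and the log2 fold change was -0.13 (standard error 0.11, limma adjusted p = 0.475). Tie1, a partner receptor of TIE2 without a well established ligand of its own (ENSMUSG00000033191, chromosome 4 from 118471191 to 118490061), had an FPKM of 14.39, 14.76 and 14.61 with Ang II and 14.49, 14.51 and 13.81 with Ang II + Tec. The highest library was 1.07-fold above the lowest, and the log2 fold change was -0.030 (standard error 0.097, 95% interval -0.26 to 0.20, limma adjusted p = 0.865). Only 0.206% of all tested genes had a smaller residual SD than Tie1 on the log2 scale. This range and this SD are of the deposited FPKM. After rescaling the log2 fold change of Tie1 was 0.19 (standard error 0.12). The Tie1 to Tek ratio was 1.57, 1.55 and 1.73 with Ang II and 1.68, 1.81 and 1.76 with Ang II + Tec. These groups overlapped, with a log2 difference of 0.11 (standard error 0.060, exact permutation p = 0.2, adjusted p = 0.3).

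Of the 3 genes for surface and secreted proteins, Egfl7 showed no overlap between the groups, and Emcn and Vwf had the widest spread. Egfl7 encodes a protein that endothelial cells secrete into the matrix around growing vessels, and its gene hosts miR-126 (ENSMUSG00000026921, chromosome 2 from 26580014 to 26592684 in the deposited table, which is not the extent in GENCODE release M21). Its FPKM was 27.98, 28.19 and 26.38 with Ang II and 24.71, 21.20 and 20.77 with Ang II + Tec. All 3 Ang II + Tec values lay below all 3 Ang II values, with a mean of 27.52 ± 0.990 (SD, n = 3) against 22.23 ± 2.16 (SD, n = 3). In log2 terms the change was -0.30 (standard error 0.11, 95% interval -0.56 to -0.036), with a limma adjusted p of 0.242 and an unadjusted p of 0.0311. After rescaling it was -0.073 and the groups overlapped.

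Emcn encodes endomucin, a sialomucin of capillary, venous and endocardial endothelium (ENSMUSG00000054690, chromosome 3 from 137341067 to 137432185). Its FPKM was 7.06, 11.13 and 6.51 with Ang II and 5.55, 6.70 and 5.85 with Ang II + Tec. Ang II replicate 2 stood alone above the rest, and the other 5 libraries lay between 5.55 and 7.06. Its log2 fold change was -0.36 (standard error 0.19, 95% interval -0.82 to 0.093, limma adjusted p = 0.328), and without Ang II replicate 2 it was -0.15. Vwf encodes von Willebrand factor, a clotting protein of large-vessel and endocardial endothelium and of platelets (ENSMUSG00000001930, chromosome 6 from 125546774 to 125686679), with an FPKM of 2.29, 3.98 and 1.82 with Ang II and 1.78, 2.36 and 2.54 with Ang II + Tec. Here too the highest library was Ang II replicate 2, the remaining 5 overlapped, and the log2 fold change was -0.16 (standard error 0.22, limma adjusted p = 0.667). It turned to 0.076 without that library. The Vwf to Cdh5 ratio was 0.113, 0.199 and 0.0820 with Ang II and 0.0763, 0.110 and 0.130 with Ang II + Tec, and it overlapped between the groups (log2 difference -0.25, standard error 0.44, exact permutation p = 0.6). Without Ang II replicate 2 this difference was 0.099.

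**Figure D3:**
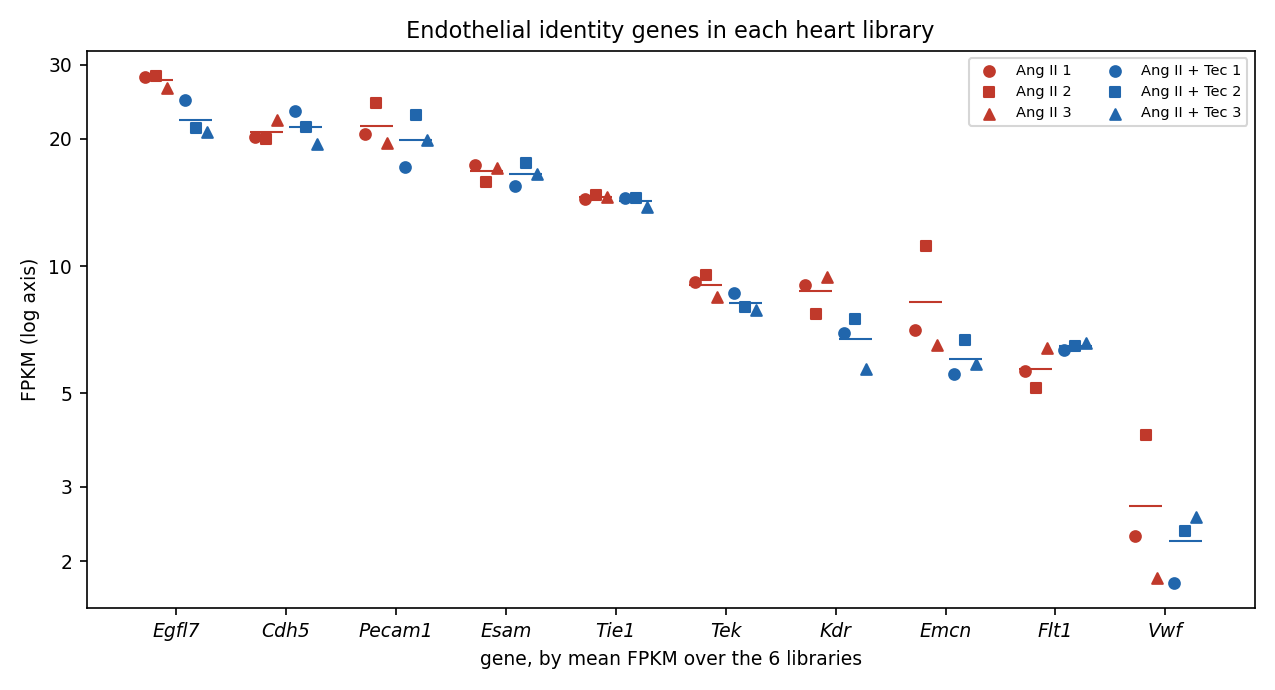
FPKM of each endothelial gene (logarithmic vertical axis) in the 3 Ang II and the 3 Ang II + Tec libraries, ordered by mean, with 1 point per library and a line at each group's mean. Egfl7 and Kdr are the genes whose groups do not overlap, and Ang II replicate 2 stands above the other libraries for Emcn and Vwf.

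The order of the genes by mean FPKM over the 6 libraries was Egfl7 (24.87), Cdh5 (21.1), Pecam1 (20.7), Esam (16.65), Tie1 (14.43), Tek (8.60), Kdr (7.72), Emcn (7.13), Flt1 (6.09) and Vwf (2.46). Neighbours in this order had ranges that did not overlap in 3 cases only, Esam above Tie1, Tie1 above Tek, and Flt1 above Vwf. Cdh5 and Pecam1 could not be ordered, since Cdh5 was the higher in 2 of 6 libraries, and Kdr was above Emcn in 4 of 6 and Emcn above Flt1 in 4 of 6. Esam held rank 4, Tie1 rank 5 and Vwf rank 10 in each of the 6 libraries. Egfl7 led every library except Ang II + Tec replicate 2, where it held rank 3, behind Pecam1 and Cdh5. Flt1, at rank 9 in each Ang II library, was at rank 7 in Ang II + Tec replicate 3, where Kdr was at rank 9.

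The summed FPKM of the 10 genes was 133.6, 140.5 and 132.5 in the Ang II libraries and 124.4, 128.5 and 119.0 in the Ang II + Tec libraries. The mean was 135.5 ± 4.35 (SD, n = 3) against 123.9 ± 4.75 (SD, n = 3), a difference of -8.56%, and the sums did not overlap between the groups. Egfl7 and Kdr are part of this sum, and the shift of all tested genes stated above applies to it. The surface and secreted genes summed to 37.33, 43.3 and 34.71 with Ang II and 32.04, 30.26 and 29.16 with Ang II + Tec. The receptor kinases summed to 38.22, 37.09 and 38.86 with Ang II and 36.39, 36.49 and 33.96 with Ang II + Tec.

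Within the groups most of the genes varied little on the deposited scale, and they did not rise and fall in parallel. The median residual SD of the 10 genes within groups was 0.102 on the log2 scale, beside 0.174 for all tested genes. It was smaller than that of Vwf in 85.6% and than that of Emcn in 79.3% of all tested genes, while 5.81% lay under Tek and 6.81% under Esam. Over the 45 pairs of genes and the 6 libraries, which share the scaling of each library and the difference between the groups, the median Pearson r was 0.203 and 18 were negative, given as a description. The 4 pairs above 0.8 were Egfl7 with Tek (0.925), Vwf with Emcn (0.879), Vwf with Pecam1 (0.827) and Emcn with Pecam1 (0.823). For Vwf, Emcn and Pecam1 the library they shared as the highest was Ang II replicate 2. The median deviation of the 10 genes from their own means was 0.083 in Ang II replicate 2 and -0.083 in Ang II + Tec replicate 3, the extremes of the 6 libraries.

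**Figure D4:**
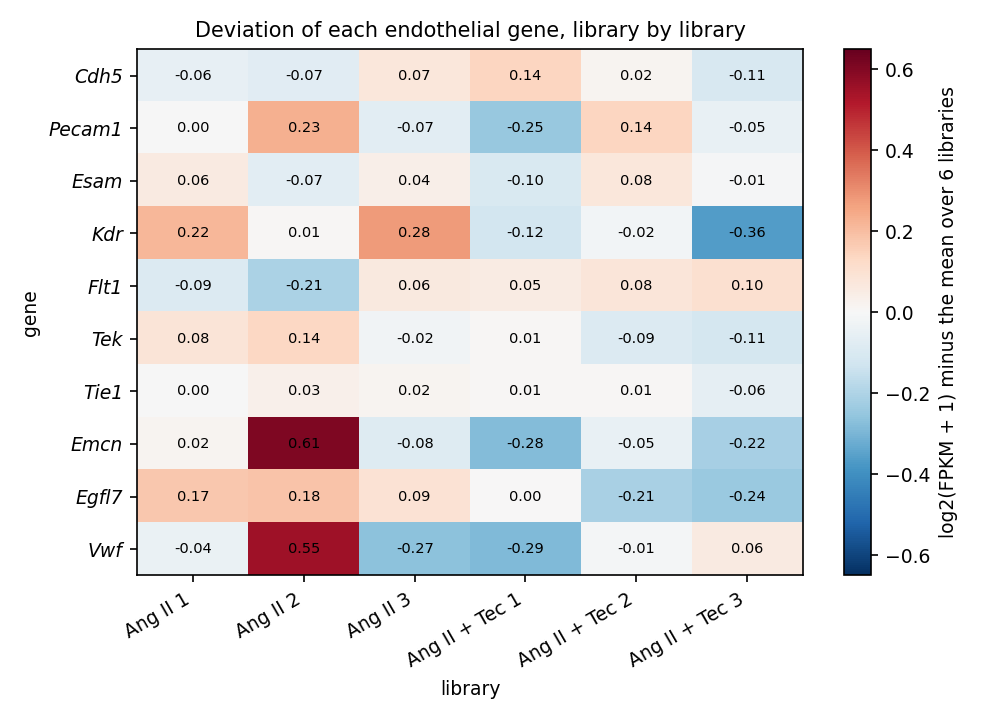
Deviation of each endothelial gene (rows) in each library (columns) from its mean over the 6 libraries, as log2(FPKM + 1), with the value in each cell and red above and blue below the mean. Emcn (0.61) and Vwf (0.55) in Ang II replicate 2 and Kdr (-0.36) in Ang II + Tec replicate 3 deviate most, and Tie1 stays within 0.06 of its mean.

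The genes whose pattern was most like the mean standardised profile of the 10, among 5041 other genes with a mean of at least 5 FPKM, were Lzic (Pearson r 0.976), Mapk12 (0.974), Aamdc (0.969), Pigp (0.966) and Abhd14a (0.964), over 6 libraries and without a test. Of those 5041 genes 62 (1.23%) had an r above 0.9. None of the 5 belongs to any of the endothelial lists used here.

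A list of 30 other endothelial genes was made up of transcription factors and of surface, junction and signalling proteins. All were tested, and 0 of 30 were called with limma. At an unadjusted p-value under 0.05, 7 were lower with Tec (Ets1, Cldn5, Cd34, Cd93, Clec14a, Ecscr and Calcrl) and 2 higher (Sox7 and Bmp6), with a lowest adjusted p of 0.229. In all tested genes 16.5% were lower and 2.09% higher at that level. After rescaling 4 were lower and 5 higher at that level, where 15.6% of all tested genes passed in either direction. The median log2 fold change of the 30 was -0.11, and 0.094 after rescaling. The endothelial transcription factors Erg (3.39, 3.25 and 2.49 FPKM with Ang II, 2.67, 2.98 and 2.18 with Ang II + Tec), Sox17 and Sox18 had log2 fold changes of -0.16, -0.089 and -0.13, and the flow-responsive factor Klf2 had 0.049. All of these overlapped between the groups.

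Cd34, a sialomucin of capillary endothelium that fibroblasts and progenitor cells also carry, had an FPKM of 35.02, 43.51 and 18.82 with Ang II and 17.45, 18.58 and 16.35 with Ang II + Tec. The groups were separated only by the step from 18.58 to 18.82, since Ang II replicate 3 lay beside the Ang II + Tec libraries. The log2 fold change was -0.78 (standard error 0.28, limma adjusted p = 0.234). The tight junction gene Cldn5, at 6.88, 6.75 and 5.64 with Ang II and 5.16, 4.67 and 5.40 with Ang II + Tec, did not overlap either, and its log2 fold change was -0.29 (standard error 0.12, limma adjusted p = 0.266). After rescaling the groups overlapped for both genes, with log2 fold changes of -0.55 for Cd34 and -0.084 for Cldn5. Plvap, which forms the diaphragms of fenestrated and endocardial endothelium, ranged from 2.73 to 21.45 FPKM with Ang II and from 3.07 to 9.05 with Ang II + Tec. The phosphatase gene Ptprb, which acts on TIE2, and the TGF-β co-receptor gene Eng had log2 fold changes of -0.020 and 0.021. Without Ang II replicate 3, 2 of the 30 genes were called, Cd34 and Plvap, against 557 of all tested genes.

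Of 7 genes for ligands of the VEGF and angiopoietin families, all 7 were tested. In these 7, 0 had an unadjusted limma p-value under 0.05, with a lowest adjusted p of 0.339. Vegfb was the most abundant of those named, at 105.82, 75.47 and 114.69 FPKM with Ang II and 102.84, 109.86 and 102.30 with Ang II + Tec. Vegfa stood at 37.69, 33.71 and 36.63 with Ang II and 42.50, 41.44 and 31.37 with Ang II + Tec, which in log2 terms was 0.081 (standard error 0.14, limma adjusted p = 0.744). Both overlapped between the groups, as did Pgf, which encodes placental growth factor and lay between 1.13 and 2.01 FPKM. Angpt1, the activating ligand of TIE2, ranged from 3.96 to 11.18 FPKM, both extremes in the Ang II + Tec group. Angpt2, its context-dependent antagonist, was 0.83, 3.83 and 0.56 with Ang II and 0.62, 0.93 and 0.56 with Ang II + Tec, so that Ang II replicate 2, which was high in Emcn and Vwf, was again the high library.

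Genes of endothelial subtypes had medians of either sign. The median log2 fold change was 0.29 for capillary and 0.37 for endocardial genes and -0.12 for arterial, -0.12 for venous and -0.14 for lymphatic genes, and rescaling turned the last 3 to 0.054, 0.0026 and 0.019 and took the capillary median to 0.52 and the endocardial median to 0.54. Of 8 capillary genes 0 were called and 3 were higher with Tec at an unadjusted limma p-value under 0.05 (Car4, Rgcc and Aqp1), where 2.09% of all tested genes were. After rescaling all 8 were higher in direction, where 50.4% of all tested genes were. Of the 8, 4 were higher at that level, where 15.6% of all tested genes passed in either direction. Car4, a carbonic anhydrase on the capillary surface, had an FPKM of 2.73, 2.25 and 7.39 with Ang II and 6.40, 8.05 and 9.03 with Ang II + Tec, with Ang II replicate 3 inside the Ang II + Tec range (log2 fold change 0.91, standard error 0.34, limma adjusted p = 0.243). The water channel gene Aqp1, chosen after its values were seen, was the 1 capillary gene without overlap, at 76.94, 78.08 and 131.99 against 173.52, 154.72 and 177.59 (log2 fold change 0.86, standard error 0.22, limma adjusted p = 0.2005). The capillary genes summed to 454.3, 440.6 and 645.0 FPKM with Ang II and 634.0, 678.7 and 685.6 with Ang II + Tec. The largest part of each sum was Cd36, named after its values were seen, at 187.64 to 290.11 FPKM. Which cells of the whole heart gave the Cd36 transcripts was not tested. On the deposited scale 2 of the 8 genes were lower in direction, so the sum does not stand for each of them.

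Of 8 arterial genes 0 had an unadjusted limma p-value under 0.05, and the connexin genes Gja4 and Gja5 were highest in Ang II replicate 2, at 13.28 and 2.55 FPKM. Gja5 lay at 1.72 to 2.55 FPKM in the libraries with Myl7 above 5 FPKM and at 0.66 to 0.80 in the others. The arterial genes summed to 36.9, 60.42 and 25.76 with Ang II and to between 26.91 and 31.82 with Ang II + Tec. Fbln5, named after its values were seen, was the largest part of the 60.42. Its FPKM was 10.99, 29.42 and 2.84 with Ang II and 3.09, 5.85 and 3.73 with Ang II + Tec. Of 5 venous genes 3 were tested, with 0 at an unadjusted limma p-value under 0.05. Ackr1, a chemokine receptor of venules, was at most 0.42 FPKM and listed at 0 in Ang II + Tec replicates 1 and 3. Of 4 endocardial genes 3 were tested, again with 0 at that level. The natriuretic peptide receptor gene Npr3 was 1.34, 3.65 and 1.27 with Ang II and 1.85, 4.55 and 2.40 with Ang II + Tec. Replicate 2 was the highest of each group, and both were libraries with Myl7 above 5 FPKM. Ang II replicate 1 also had Myl7 above that limit, but its Npr3, at 1.34, lay below every Ang II + Tec value. Of 7 lymphatic genes 6 were tested and 1 was lower at an unadjusted limma p-value under 0.05 (Ccl21a). Prox1, the defining factor of lymphatic identity, lay between 2.63 and 3.77, and which cells of the heart gave its transcripts was not tested.

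Sums of leukocyte markers did not overlap between the groups, and those of fibroblast markers did. Leukocyte markers summed to 325.7, 498.2 and 251.5 FPKM with Ang II and 172.5, 170.4 and 187.4 with Ang II + Tec, and 7 of 8 were tested, all 7 lower with Tec at an unadjusted limma p-value under 0.05 (5 after rescaling) and 0 called. Fibroblast markers summed to 539.4, 679.2 and 154.5 with Ang II and 135.4, 218.7 and 150.7 with Ang II + Tec, with 4 of 8 lower at that level on both scales, and Ang II replicate 3 lay in the Ang II + Tec range. Of all tested genes 16.5% were lower at that level as deposited, and 15.6% passed in either direction after rescaling. Mural cell markers summed to between 248.1 and 448.5 with Ang II and between 211.2 and 360.0 with Ang II + Tec, with 0 of 9 at that level. Erythroid markers summed to between 247.8 and 1018 and between 147.4 and 526.4.

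Platelets share Pecam1, Esam and Vwf with endothelium. Of 7 platelet markers 2 were tested, and both were lower in direction, Pf4 at an unadjusted limma p-value under 0.05 and Ppbp not. Pf4 stood at 13.35, 15.55 and 9.91 FPKM with Ang II and 7.79, 9.26 and 9.34 with Ang II + Tec. Macrophages can also express Pf4. The platelet glycoprotein genes Gp9 and Gp5 were at most 0.47 FPKM and were listed at 0 in Ang II + Tec replicate 1, Gp9 also in replicate 3. The other 3 untested markers, Itga2b, Gp1bb and Gp1ba, were above 0 in every library and at most 0.46 FPKM, and Gp1ba was not lower with Tec, at 0.38, 0.40 and 0.23 with Ang II and 0.36, 0.46 and 0.46 with Ang II + Tec. The part of leukocytes, fibroblasts and platelets in the values of the 10 genes was not tested.

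**Figure D5:**
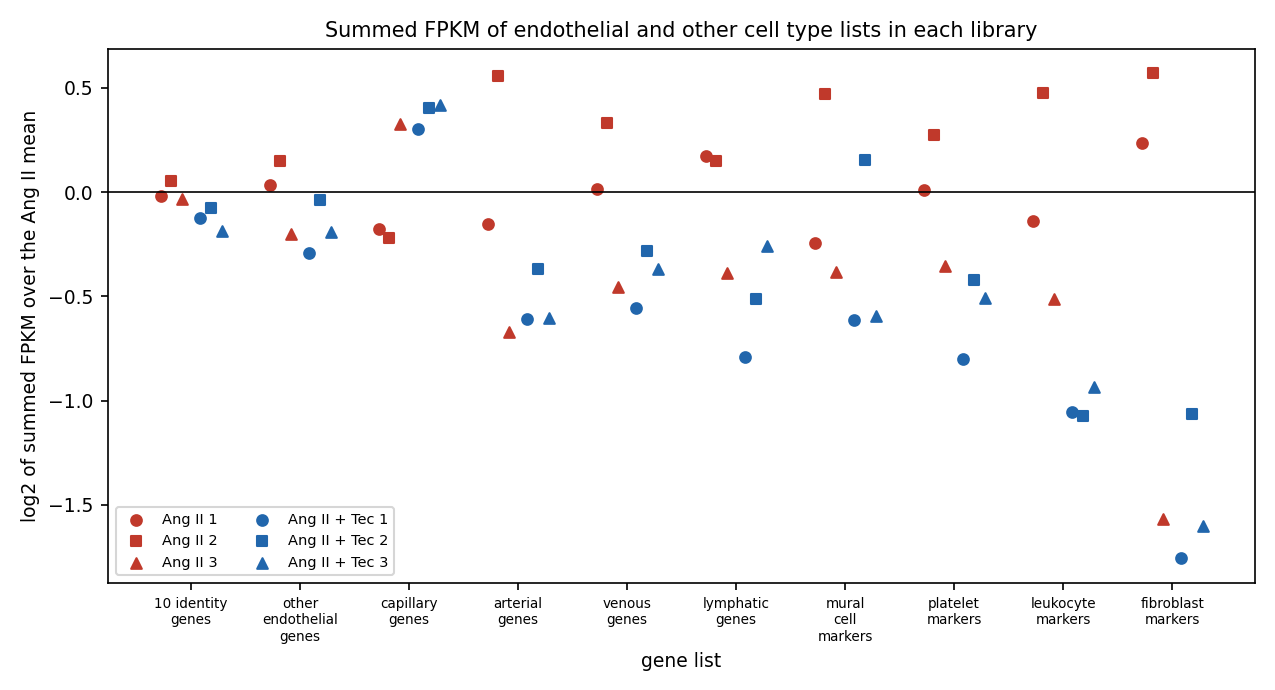
Summed FPKM of each gene list in each library, as log2 of its ratio to the mean of the 3 Ang II libraries (vertical axis), with 1 point per library. The 10 identity genes lie near 0 in all 6 libraries, the capillary sums are high in Ang II replicate 3 and all Ang II + Tec libraries, and the leukocyte sums of the groups do not overlap.

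Within the libraries with Myl7 above 5 FPKM, which are Ang II replicates 1 and 2 and Ang II + Tec replicate 2, the median log2 difference of the 10 genes was -0.069 beside -0.13 for all tested genes. Within the other 3 libraries it was -0.069 beside -0.078. Kdr was -0.13 in the first and -0.52 in the second set, Egfl7 was -0.39 and -0.21, and Flt1 was 0.23 and 0.015. Flt1 was thus higher in direction in both sets. Kdr and Egfl7 were lower in both, as any such division must give for genes whose groups do not overlap. With 1 library in a group these are values without a test, and this division was made after the data were seen.

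Leaving out a library changed which of the 10 genes separated. Without Ang II replicate 3, 4 of 10 lay lower without overlap (Egfl7, Emcn, Kdr and Tek) and Flt1 higher, where 53.7% of all tested genes were lower without overlap and 6.84% higher, so the count of lower genes did not exceed the background. Kdr and Egfl7 were lower without overlap whichever library was left out, which had to follow, since their groups were already separate with all 6 libraries. Their unadjusted limma p-values did not both pass 0.05 in any of these 6 fits.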

How the data were processed

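Heart RNA of 3 Ang II mice and 3 Ang II + Tec mice was analysed. The authors trimmed poly(A) RNA reads (Cutadapt), examined read quality (FastQC) and deposited 1 FPKM value per gene and library. The submitters' processing notes name Bowtie 0.12.2, HISAT2 2.0 and StringTie 1.3.0 and the build mm8, without their roles, yet the deposited coordinates equal the GRCm38 coordinates of GENCODE M21 for 27947 of 30832 shared genes (90.6%). The labels name a NovaSeq and the methods a HiSeq instrument.

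FPKM are not counts and hold no total of reads, so no counting interval is given, and the error is the spread between mice. Genes reaching 0.5 FPKM in 3 or more libraries were fitted as log2(FPKM + 1) with limma 3.58.1 in R 4.3.3 (lmFit, eBayes with trend) and Benjamini-Hochberg adjustment, with no covariate or block. Calls needed an adjusted p-value under 0.05 with a log2 fold change of 1 or more in size. The fit was tested on simulated data. The 3 ratios were examined with exact permutation tests (scipy 1.17.1). Promoters came from the RefSeq table of GRCm38.p6.

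The 10 genes, the lists and the genes named from them by role were chosen with earlier results of these data known. From the other endothelial, ligand and subtype lists 20 genes were named by role, and any others only as members counted at a p-value, as those most like the 10, or as said beside them. Alternatives changed the pseudocount, filter, scaling, variance estimate, weights and block, and left out each library in turn. Deviations of same-numbered libraries from their group means had r of -0.039, 0.43 and 0.38. Differently numbered libraries had r of -0.44 to 0.23, so 0.43 and 0.38 lay above all of these and -0.039 did not. The main fit did not take the numbers to pair the mice, and the block was run as an alternative.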

Additional observations from a re-analysis of the deposited data

How the results depend on the processing

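Of 318 alternative values, 272 were held to be the same, 23 moved and 23 reversed. For ratios and single genes, reversed means a change of sign. Counts and list medians could only stay the same or move, so medians that changed sign are among those that moved. A list median moved where it changed by at least the SD between libraries within groups. A count within a set factor of the main count, such as 3 beside 2, was held to be the same. The count of the 10 genes at an unadjusted p-value under 0.05, 2 in the report, was 0 with median-of-ratios scaling, 0 with quantile normalization, 1 without mitochondrial transcripts, 4 with arrayWeights (where 46.4% of all tested genes passed, Emcn had an adjusted p of 0.0298, and the weights stopped short of their convergence tolerance) and 0 to 2 with a library left out. With the replicate block it was 1 (Emcn in place of Kdr and Egfl7), and the block changed no other count of the 10 genes. The count lower without overlap, also 2, was 0, 0 and 1 under the same 3 scalings and 2 to 4 with a library left out. For the 10 genes the median log2 fold change became 0.0995 and 0.11 under the first 2 scalings, -0.21 with arrayWeights and -0.17 to -0.040 with a library left out. For the other endothelial genes the median was 0.094 and 0.12 under those scalings, and 2 were called with arrayWeights and 0 to 2 with a library left out (2 without Ang II replicate 3). The Vwf to Cdh5 log2 difference was -0.54 to 0.099 with a library left out. Under those 2 scalings the log2 fold change of Pecam1 turned to 0.12 and 0.14, that of Esam to 0.20 and 0.22, of Tek to 0.080 and 0.076, of Tie1 to 0.19 and 0.20 and of Vwf to 0.0099 and 0.031. Without mitochondrial transcripts Esam was 0.012 and Tie1 0.00084, and with arrayWeights Esam was 0.021 and Cdh5 -0.016. Within libraries with Myl7 above 5 FPKM, a division added after seeing the data, Pecam1 was 0.025 and Esam 0.081, and within the others Cdh5 was -0.056 and Vwf 0.15. With a library left out, Cdh5 was -0.025 to 0.099, Esam -0.063 to 0.024 and Vwf -0.33 to 0.076. The called genes of all tested numbered 21, 522 with arrayWeights, 557 without Ang II replicate 3 and 2 to 22 otherwise. The causes of these differences were not tested. FPKM give only a relative depth, so what depth limits cannot be stated in reads.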
